A study of Mus musculus with 36 samples.

Results

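The comparison set CCR2-positive (CCR2pos) against CCR2-negative (CCR2neg) cells within 1 genotype and 1 Cre status: macrophages sorted by flow cytometry from mouse hearts that carried the TFEB cassette and were labelled Cre-neg. It used 8 of the 36 libraries of the series, 4 per fraction, titled TFEBTG1 to TFEBTG4 in each fraction and paired by that number. TFEB, which switches on genes of lysosomes and autophagy, is encoded in TFEB-TG mice by a transgene that a floxed stop keeps silent until Cre removes it. The series text describes Cre-neg samples as lacking Cre, while the protocol shared by all samples names mice with a tamoxifen-dependent Cre under the Cx3cr1 promoter (Cx3cr1-er-Cre) and a Td-Tomato reporter behind its own stop. How Cre-neg cells were separated from the mac-TFEB cells of the same numbers was not stated in any label or protocol used here. All mice received tamoxifen for 7 days, then 90 min of cardiac ischemia, and hearts were taken 7 days after the ischemia. There was no uninjured heart in these groups, and animal age was not in the labels used here. The labels do not say whether the 4 numbers were 4 animals, so the p-values measure a spread between samples. That spread was estimated over all 36 libraries in 1 fit, not over these 8 alone.

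CCR2 is the receptor for CCL2 and related chemokines, through which monocytes leave the bone marrow and enter injured tissue. In the heart, macrophages with CCR2 are mostly replenished from blood monocytes and are known for inflammatory cytokines and antigen presentation. Macrophages without it include long-lived resident cells, which are known for clearance of dying cells and for markers such as TIMD4, LYVE1 and VSIG4.

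The 8 libraries held 13797484 to 20404356 counts, with 12635 to 12770 of the 12795 listed genes detected. Levels are given as CPM, the counts relative to library size after TMM scaling, in the order TFEBTG1, TFEBTG2, TFEBTG3, TFEBTG4, and are not divided by gene length. General macrophage transcripts were abundant in all 8 libraries: Adgre1 (F4/80) ranged from 2149 to 3766 CPM, Csf1r from 1455 to 2988 and Cd68 from 2009 to 3012. The sort check was met. Ccr2 read 475, 1231, 782 and 983 CPM in CCR2pos and 52.8, 81.2, 49.4 and 81.5 in CCR2neg libraries, a log2 fold change of 3.65 ± 0.26 (standard error). Tfeb, the gene of the cassette, lay between 12.4 and 51.0 CPM in these 8 libraries, above the 4.57 to 10.9 CPM of the 10 TFEB-wt Cre-neg libraries and below the 60.4 to 335 CPM of the 8 mac-TFEB libraries. Counts of the endogenous gene and of the cassette cannot be told apart. In both fractions Xist, which is expressed in female cells, was at 0.197 to 0.356 CPM for numbers 1 and 2 and at 91.6 to 130.2 CPM for numbers 3 and 4. The library TFEBTG1 CCR2neg stood apart: it had Myh6, the cardiac alpha myosin heavy chain, at 80.3 CPM where the other 7 had 0.322 to 2.43. Calls that were lost without this library are named as such.

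Of 12795 genes tested, 1228 (9.6%) were called at an adjusted p under 0.05 by edgeR's quasi-likelihood test with Benjamini-Hochberg adjustment. CCR2pos cells had 801 genes higher (6.26%) and 427 lower (3.34%), and the median log2 fold change of all genes was -0.02. Counts of list members given below stand beside these shares of all genes. Most of the calls were small. At least 2-fold differences were found for 101 of the higher and 111 of the lower genes, and at least 4-fold ones for 10 and 34. The sign was the same in all 4 pairs for 758 of the higher and 403 of the lower genes. For 411 and 211 of them the 4 CCR2pos values did not overlap the 4 CCR2neg values, a pattern that 7.92% of all genes tested showed (4.62% with higher and 3.3% with lower CCR2pos values). Without the block for the pair number 417 genes were called (316 higher, 101 lower), and without the library TFEBTG1 CCR2neg 1098 were.

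**Figure D1:**
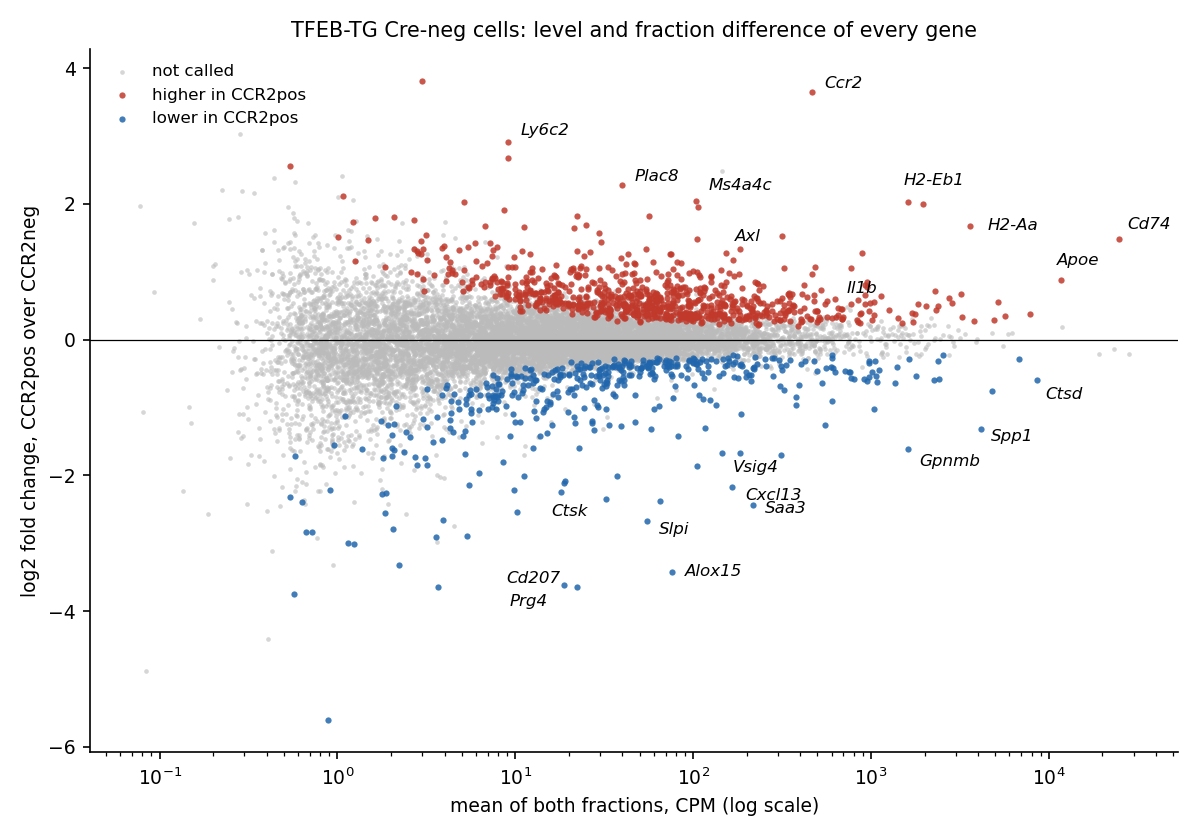
Each point is 1 of 12795 genes, with its mean CPM over both fractions on a log axis and its log2 fold change, CCR2pos over CCR2neg, on the vertical axis. Red points are the 801 higher and blue points the 427 lower calls. The class II genes and Cd74 lie high at the abundant end. Prg4, Alox15 and Cd207 are the lowest of the labelled genes, at -3.62, -3.42 and -3.64. The lowest of all genes lies at -5.61.

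The MHC class II list had the highest median of the lists. MHC class II molecules are pairs of alpha and beta chains that display peptides to CD4+ T cells, the invariant chain Cd74 escorts them, H2-DM loads the peptide, and CIITA switches their genes on. Of 11 measured members of the list, 7 were higher and 1 was lower, with a median log2 fold change of 1.28 against -0.02 for all genes. The beta chain H2-Ab1 read 3591, 3829, 2078 and 2886 CPM in CCR2pos and 1410, 671, 605 and 536 CPM in CCR2neg libraries. Every CCR2pos library lay above every CCR2neg one, and the CCR2neg library of number 1 was the highest of its fraction. The log2 fold change was 2.0 ± 0.17 (edgeR adjusted p = 2.29e-09). The second beta chain H2-Eb1 read 2958, 3323, 1742 and 2321 against 1053, 529, 497 and 499 CPM, again without overlap, at 2.03 ± 0.15. For the alpha chain H2-Aa the values were 5733, 6951, 4154 and 5219 against 2259, 1756, 1495 and 1406 CPM, a log2 fold change of 1.68 ± 0.12. Cd74, among the most abundant transcripts of these cells, went from 17590, 14835, 10727 and 9853 CPM in CCR2neg to 41231, 46103, 26231 and 32861 CPM in CCR2pos libraries, at 1.48 ± 0.12 (edgeR adjusted p = 1.28e-09). None of these groups overlapped. The peptide loader H2-DMb1 had 257, 314, 223 and 262 against 120.3, 99.3, 118 and 81.3 CPM and a log2 fold change of 1.33, and H2-DMa had one of 0.97. The transactivator Ciita was scarcer, at 36.2, 47.5, 29.3 and 35.7 against 23.3, 16, 10.9 and 11.9 CPM, and also did not overlap (1.28 ± 0.17). The lower member was Ctss, the cathepsin that trims the invariant chain, at -0.28 ± 0.09; its call was lost without the block and in 10 other alternatives. H2-DMb2, H2-Ob and H2-Oa were not called, with log2 fold changes of 0.42, 0.26 and 0.04. The count of higher members was 7 as well without the block, in a fit to the 8 libraries alone and without the library TFEBTG1 CCR2neg.

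The promoters of H2-Aa and H2-Eb1 are shown because class II promoters are known to carry a CCAAT box, the binding site of the factor NF-Y, next to the site of the complex that recruits CIITA. Each is the 200 bases before the annotated start site in RefSeq (GRCm38.p6), written 5′ to 3′ on the strand of the gene, with CCAAT on either strand in capitals; ATTGG is CCAAT read on the other strand. H2-Aa lies at chr17:34287824-34288023 on the minus strand with the match starting 48 bases before the start site. H2-Eb1 lies at chr17:34305667-34305866 on the plus strand with matches starting 59 and 35 bases before it, which do not overlap.
H2-Aa: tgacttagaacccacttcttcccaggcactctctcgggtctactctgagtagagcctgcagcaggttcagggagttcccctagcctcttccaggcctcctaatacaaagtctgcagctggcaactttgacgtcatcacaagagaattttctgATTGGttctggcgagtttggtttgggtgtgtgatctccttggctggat
H2-Eb1: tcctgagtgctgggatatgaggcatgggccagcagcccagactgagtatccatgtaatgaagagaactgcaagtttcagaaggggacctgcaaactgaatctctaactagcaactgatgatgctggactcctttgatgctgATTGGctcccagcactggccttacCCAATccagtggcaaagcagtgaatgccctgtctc
Of the 9 windows (250 bases before to 50 after the start site) found for the measured members of the list, 7 held CCAAT on either strand (77.8%), and of the 6 windows of called members 4 did (66.7%). The motif is common: 37.4% of all 32851 windows in the table held it, as did 37.4% of the windows of the higher and 32.2% of those of the lower genes.

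Genes that accompany antigen presentation were higher in part. Among co-stimulation and antigen uptake lectins 6 of 20 were higher and 1 was lower, with a median of 0.31; without the block 2 were higher and none lower. Cd83, which stabilises class II and CD86 at the cell surface, read 2719, 2828, 3169 and 2729 against 1492, 1964, 1783 and 1748 CPM without overlap, at 0.71 ± 0.08 (edgeR adjusted p = 4.17e-07). The C-type lectin gene Clec4b1 had 40.4, 62.1, 37.1 and 36.9 against 11.4, 12.1, 16.2 and 19.3 CPM, a log2 fold change of 1.57 ± 0.16. Clec10a, Clec4a1, Clec4a2 and Clec4a3 were the other higher members, at 0.79, 0.34, 0.40 and 0.33; Clec4a genes are close relatives, and reads shared between them were not resolved. Clec4d was lower at -0.48, a call lost in 11 of 19 alternatives. The Clec4a1 call was lost in 9, the fit without the library TFEBTG1 CCR2neg included. The class I gene H2-D1, one of several near-identical class I genes, was also higher, with 6961, 6198, 5532 and 5992 against 5352, 3833, 3971 and 3766 CPM (0.55 ± 0.09). Among markers of dendritic cells, which carry much class II, 3 of 18 were higher and none was lower (16.7% called, beside 9.6% of all genes). These were Dpp4, Batf3 and Bst2, the last also a member of the interferon list below. The Dpp4 call was lost in 9 of 19 alternatives, the fit without the block included. The Batf3 call was lost in 8, the fit without the library TFEBTG1 CCR2neg included. Of the 18 markers 12 had a positive fold change. Their summed level was 511 to 744 CPM in CCR2pos against 479 to 613 CPM in CCR2neg libraries. The defining dendritic genes were scarce: Flt3 read 7.44, 7, 2.28 and 1.74 against 1.84, 3.33, 0.691 and 1.64 CPM, Clec9a was at 0 to 1.1 CPM over the 8 libraries, and neither was called. The part of dendritic cells in the class II values was not tested.

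Genes of the interferon response formed the second higher group. Type I interferon signals from its receptor to the nucleus and switches on antiviral genes. Of 24 measured members, 14 were higher and none was lower, at a median of 0.50. Irf7, the factor that amplifies interferon production, read 442, 464, 364 and 483 CPM in CCR2pos and 217, 211, 181 and 232 CPM in CCR2neg libraries. All CCR2pos values lay above all CCR2neg ones, with a log2 fold change of 1.06 ± 0.11 (edgeR adjusted p = 1.4e-07). The ubiquitin-like modifier Isg15 had 84.9, 92.6, 89.9 and 111 against 39, 42.7, 49.9 and 64.8 CPM, also without overlap, at 0.96 ± 0.13. Rsad2 (viperin) read 118, 88.5, 102 and 116 against 50.8, 54.4, 59.5 and 87.7 CPM (0.76 ± 0.14). The largest change in the list was that of Ifi44, with 16.6, 16.3, 16.5 and 11.5 against 8.46, 3.92, 4.34 and 9.12 CPM and 1.31 ± 0.36. Other higher members included Oas3, Ifit3, Bst2, Cxcl10, Zbp1, Usp18, Mx1, Stat2 and Oas1a, between 0.35 and 1.03. Pair 4 had the smallest difference, with a list median of 0.16 where pairs 1 to 3 had 0.63, 0.48 and 0.49. The count was 4 without the block, 8 in a fit to the 8 libraries alone and 10 without the library TFEBTG1 CCR2neg (the calls lost there included Ifit3, Usp18 and Mx1), in each case with none lower; the Ifi44 call was lost in 7 of 19 alternatives. Irf7 shares exon sequence with Phrf1 and Cxcl10 with Art3, and the libraries carry no strand, so reads of overlapping genes cannot be told apart.

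The promoters of Isg15 and Rsad2 are shown because interferon-responsive promoters are known for repeats of GAAA spaced by 2 bases, the element bound by interferon-activated factors. They are again the 200 bases before the RefSeq start site (GRCm38.p6), with the motif (GAAA, any 2 bases, GAAA) on either strand in capitals. Isg15 lies at chr4:156200819-156201018 on the minus strand, with 3 overlapping matches starting 78, 72 and 66 bases before the start site. Rsad2 lies at chr12:26456453-26456652 on the minus strand, with its match on the other strand, 120 bases before it.
Isg15: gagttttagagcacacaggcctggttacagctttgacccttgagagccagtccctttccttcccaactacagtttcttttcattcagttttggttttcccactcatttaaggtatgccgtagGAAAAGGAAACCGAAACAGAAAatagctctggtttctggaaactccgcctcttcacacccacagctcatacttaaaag
Rsad2: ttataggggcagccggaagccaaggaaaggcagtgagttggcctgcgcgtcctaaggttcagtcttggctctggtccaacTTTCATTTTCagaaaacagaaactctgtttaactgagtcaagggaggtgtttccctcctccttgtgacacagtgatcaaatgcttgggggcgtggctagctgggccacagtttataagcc
Of 19 windows of measured list members 11 held the motif (57.9%), and of the 10 windows of called members 8 did (80%). It was in 3.44% of all windows in the table, in 6.09% of the windows of the higher and in 3.04% of those of the lower genes.

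Inflammatory cytokine and NF-kB genes were the third group. NF-kB is the factor through which pattern-recognition and cytokine receptors switch on inflammatory genes. Of 23 measured members 12 were higher and none was lower, at a median of 0.39. The cytokine gene Il1b read 649, 728, 1106 and 1691 CPM in CCR2pos and 379, 284, 659 and 688 CPM in CCR2neg libraries. Its groups overlapped, because numbers 3 and 4 were higher than 1 and 2 in both fractions, but it was higher in CCR2pos in all 4 pairs (1.05 ± 0.15, edgeR adjusted p = 1.72e-05). Il10, which restrains inflammation, was likewise higher in numbers 3 and 4 of each fraction, with 111, 216, 256 and 325 against 39.4, 76.2, 126 and 196 CPM and 1.18 ± 0.12. The cytokine oncostatin M (Osm) did not overlap, at 170.2, 149, 161 and 184 against 97.1, 70.9, 94.2 and 85.9 CPM (0.93 ± 0.11). Ptgs2, the inducible cyclooxygenase, had 142, 194, 185 and 334 against 91.3, 108, 83.6 and 139 CPM (0.98 ± 0.24). The other higher members were Il1r2, Nfkb2, Irak2, Nfkbia, Nlrp3, Ccrl2, Cxcl2 and Tnfaip3, between 0.29 and 1.06. Neither Tnf (log2 fold change 0.21) nor Il6 (-0.41) was called. The count was 5 without the block, 8 in the 8 libraries alone and 10 without the library TFEBTG1 CCR2neg, which ended the calls of Cxcl2 and Tnfaip3.

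Genes that respond within minutes to cell handling were also higher in part. Their list medians in pairs 1 to 4 were 0.25, 0.31, 0.20 and 0.07, beside 0.28, 0.38, 0.28 and 0.57 for the inflammatory list. Of 21 measured dissociation and stress genes 8 were higher and none was lower, at a median of 0.21, and the summed level was 18995 to 20774 CPM in CCR2pos against 14557 to 17484 CPM in CCR2neg libraries. Fosb read 1171, 1238, 1264 and 1071 against 715, 575, 707 and 692 CPM, without overlap (0.81 ± 0.17). Zfp36, whose product shortens the life of cytokine transcripts, had 3570, 4276, 3971 and 3953 against 2086, 2822, 2393 and 2598 CPM (0.68 ± 0.08). Ier2, Junb, Dnajb1, Nfkbia, Socs3 and Btg2 were also higher, whereas Fos, Egr1 and Dusp1 had log2 fold changes of 0.01, -0.03 and -0.14 and were not called. Without the block the calls of Ier2, Junb, Btg2 and Socs3 were lost. Nfkbia is a member of the inflammatory list as well. The part of cell handling in the inflammatory values was not tested.

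Chemokine genes went in both directions, 4 higher and 3 lower of 19. The monocyte chemoattractant gene Ccl8 read 739, 1366, 1382 and 1269 CPM in CCR2pos and 152, 502, 775 and 888 CPM in CCR2neg libraries. The lowest CCR2pos value, in number 1, lay below the 2 highest CCR2neg values, and the log2 fold change was 1.27 ± 0.23. Its neighbours Ccl7 and Ccl12 were higher by 0.39 and 0.46, calls that were lost without the library TFEBTG1 CCR2neg, and Ccl2 was not called at 0.21. Cxcl13, which attracts B cells, was the largest decrease, with 67.6, 50.4, 27.7 and 128 against 223, 227, 308 and 298 CPM and no overlap (-2.18 ± 0.40, edgeR adjusted p = 0.000497). Ccl24 and Pf4 were lower by 0.97 and 0.47. Without the block Cxcl13 was the 1 lower call of the list and none was higher; the adjusted p of Ccl8 was then 0.185. Of 14 chemoattractant receptors beside Ccr2, Cx3cr1 and Ccr1 were called, both higher (14.3% called, beside 9.6% of all genes). Cx3cr1, the fractalkine receptor whose promoter drives the Cre of this line, had 308, 335, 367 and 398 against 218, 274, 187 and 275 CPM, without overlap (0.57 ± 0.11). Cx3cr1 and Ccr1 were lost as calls without the block, where the edgeR adjusted p of Cx3cr1 was 0.152.

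Monocyte genes did not move as a list, with 5 of 29 higher, 3 lower and a median of -0.01, but Ly6c2, Plac8 and Ms4a4c had the largest increases after Ccr2 among the genes named by rule (mean of at least 10 CPM in a fraction and the same sign in all 4 pairs). Ly6c2, the antigen of classical monocytes, read 6.4, 19.9, 14.9 and 23.3 CPM in CCR2pos and 1.38, 2.31, 1.88 and 2.51 CPM in CCR2neg libraries. It was scarce in all of them and did not overlap, with a log2 fold change of 2.92 ± 0.55 (edgeR adjusted p = 0.000646). Plac8 had 21.9, 71.1, 42.2 and 129.8 against 6.1, 8.97, 13.9 and 22.8 CPM, higher in every pair though the lowest CCR2pos value lay just below the highest CCR2neg one (2.28 ± 0.33). Ms4a4c, of the Ms4a membrane protein family, had 118, 189.6, 138 and 222 against 29.3, 36.5, 38.5 and 58.4 CPM, without overlap (2.05 ± 0.16). The lower members were Fn1, Gsr and S100a10, at -1.02, -0.71 and -0.56. Fn1 (fibronectin) read 436, 539.6, 900.0 and 1137 against 2027, 1072, 1302 and 910.4 CPM; its highest value was that of the library TFEBTG1 CCR2neg, and number 4 went the other way. Chil3 had 3452 CPM in the same library and 36.1 to 654 CPM in the other 7, and was not called. Without this library the calls of Fn1 and Gsr were lost, and the list had 5 higher and 1 lower member.

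Further genes with large increases belonged to none of these groups. Plbd1, a phospholipase B-like lysosomal protein, read 147, 222, 115 and 191 against 65.9, 36, 30.3 and 43.9 CPM without overlap (1.95 ± 0.16). The orphan receptor gene Gpr141 had 33.9, 36.1, 29.2 and 38.6 against 6.82, 11.8, 7.95 and 13.5 CPM (1.82 ± 0.22). Nrg1, the growth factor neuregulin that acts on cardiomyocytes through ERBB receptors, had 6.8, 7.77, 7.19 and 19.9 against 2.62, 2.42, 2.37 and 4.97 CPM, with number 4 the highest in both fractions (1.68 ± 0.37). Vps37b of the ESCRT machinery and the RNA-binding protein gene Rbm38 were higher by 1.82 and 1.69, in all 4 pairs but with overlapping groups. Vps37b shares exon sequence with Hip1r. Apoe, the lipoprotein of cholesterol export, was abundant and read 18182, 15084, 14074 and 11684 against 14097, 8664, 3879 and 7938 CPM. The CCR2neg library of number 1 lay within the CCR2pos range, and the log2 fold change was 0.88 ± 0.16 (edgeR adjusted p = 0.000438). Axl, a receptor for apoptotic cells bridged by GAS6, read 269.8, 237, 184 and 173 against 135, 84, 77 and 66.9 CPM; each CCR2pos value exceeded the CCR2neg range, at 1.27 ± 0.12. Among adhesion genes the junctional molecule gene Jaml had the largest increase, with 8.74, 7.18, 3.97 and 11.3 against 4.86, 2.42, 1.88 and 2.94 CPM and overlapping groups (1.36 ± 0.27). More abundant were the integrin ligand gene Icam1, with 577, 631, 593 and 552 against 344, 385, 363 and 401 CPM (0.66 ± 0.09), and the fibronectin receptor chain Itga5, with 259, 247, 286 and 302 against 178, 174, 171 and 193 CPM (0.61 ± 0.08); neither of these overlapped. Of 22 integrin, adhesion and migration genes 5 were higher and 3 lower, or 2 and 1 without the block. The calls of Nrg1, Rbm38, Apoe and Jaml were also lost without the block. Transcription factor genes of macrophages and dendritic cells counted 8 higher and 2 lower of 30, or 3 and none without the block. Irf8, which directs monocyte and dendritic cell fate, had 149, 109.9, 99.6 and 96.6 against 73.4, 66.7, 67.3 and 66.6 CPM (0.70 ± 0.13), and Batf had 36.4, 38.6, 32.2 and 37.6 against 20.7, 19.2, 24 and 22.7 CPM (0.74 ± 0.11), both without overlap. Nr1h3, which encodes the cholesterol sensor LXR alpha, was lower at -0.66, a call lost in 10 of 19 alternatives, the fit without the library TFEBTG1 CCR2neg included.

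**Figure D2:**
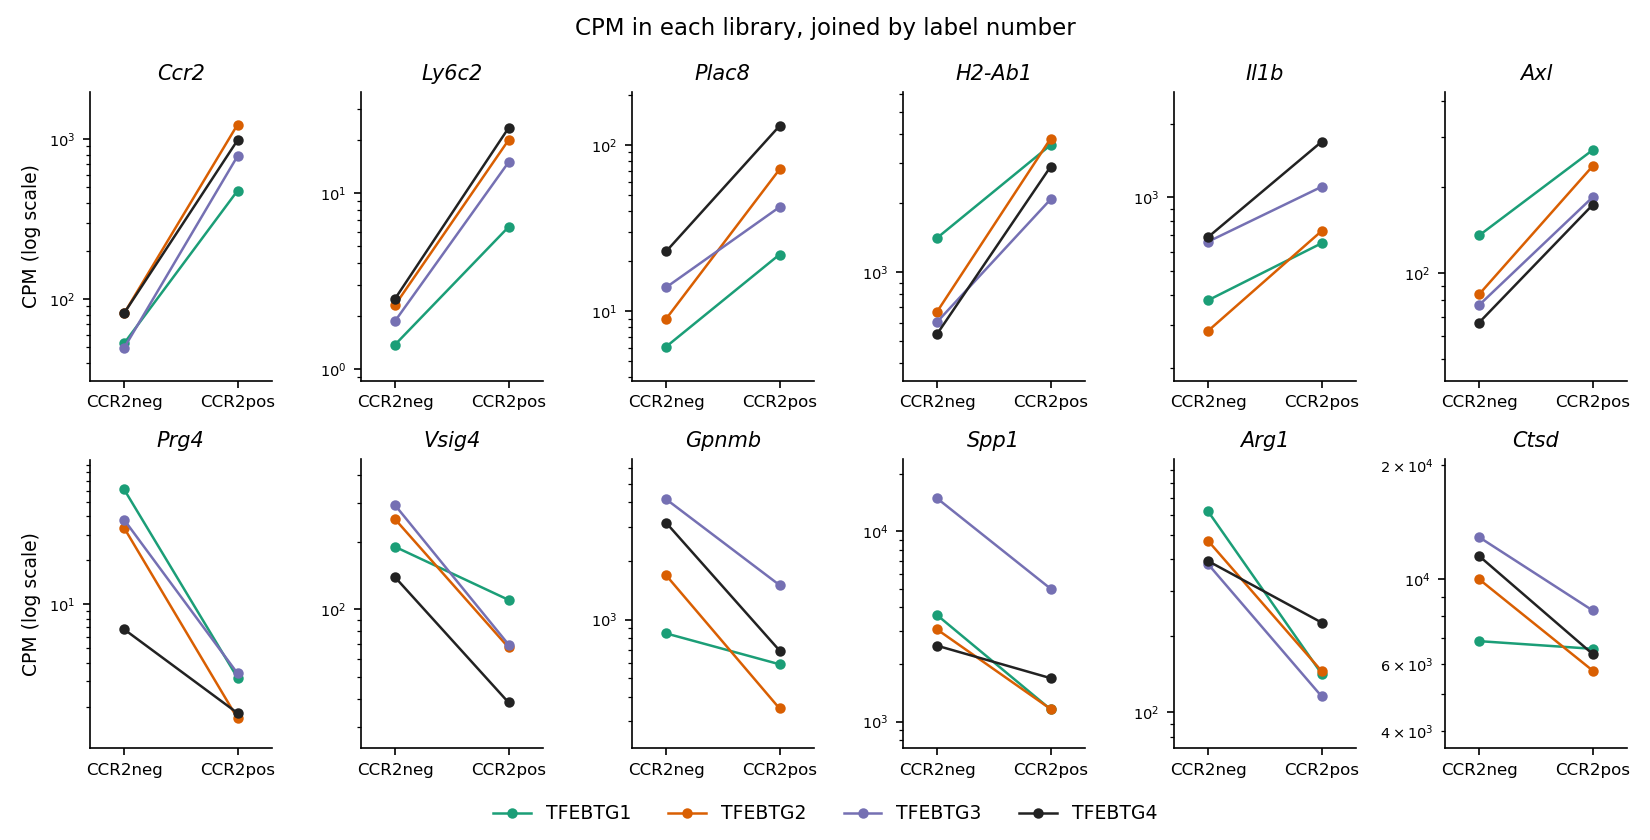
CPM on log axes of 12 genes in the CCR2neg and CCR2pos library of each number, with a line joining the libraries of a number. All lines of the upper row rise and all lines of the lower row fall; the lines of Il1b and Plac8 rise from starting levels that differ between numbers, and for Ctsd the line of number 1 is nearly flat.

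Genes of serous-cavity macrophages had the lowest median of the pathway and cell state lists. These are the large macrophages of the peritoneal and pericardial fluid, known for the factor GATA6 and for Prg4 and Alox15. Of 10 measured members 6 were lower and none was higher, at a median of -1.66. Prg4, which encodes the lubricant proteoglycan lubricin, read 3.15, 1.66, 3.37 and 1.8 CPM in CCR2pos and 61.2, 33.4, 38 and 6.75 CPM in CCR2neg libraries. The groups did not overlap, number 4 had the lowest CCR2neg value, and the log2 fold change was -3.62 ± 0.38 (edgeR adjusted p = 1.64e-07). The lipoxygenase gene Alox15 had 21, 2.91, 24.6 and 5.03 against 143, 182, 198 and 31.1 CPM (-3.42 ± 0.53), and number 4 was again the lowest of its CCR2neg group. The adhesion receptor gene Selp read 3.65, 3.56, 5.65 and 1.1 against 15.7, 21.1, 21.9 and 5.69 CPM (-2.22 ± 0.38). Cxcl13, Fabp7 and Cd5l were the other lower members. Gata6 itself was scarce, with 0.849, 0.831, 1.19 and 0.193 against 6.37, 0.752, 1.28 and 0.869 CPM, and was not called. Tgfb2, Icam2 and Laptm5 were not called either. Without the block 4 members were lower, and without the library TFEBTG1 CCR2neg 6 were. Prg4 shares exon sequence with Tpr.

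Several other large decreases were of secreted and surface proteins. Cd207 (langerin), a lectin of Langerhans cells and some macrophages, read 11.4, 0.949, 1.88 and 0.967 CPM in CCR2pos and 54.5, 43.1, 53.4 and 10.8 CPM in CCR2neg libraries. The CCR2pos value of number 1 exceeded the CCR2neg value of number 4, and the log2 fold change was -3.64 ± 0.61. Saa3, an acute-phase protein made by macrophages, had 35, 35.2, 69.9 and 206 against 271, 287, 271 and 554 CPM (-2.44 ± 0.37), with number 4 the highest in both fractions. The protease inhibitor Slpi had 12.4, 12.8, 12.2 and 31.7 against 137, 80.9, 84.8 and 65.3 CPM (-2.67 ± 0.48), again highest in number 4 among CCR2pos and without overlap. Serpinb2, the plasminogen activator inhibitor 2, had 6.7, 13.9, 18.9 and 85 against 61.7, 136, 105 and 92.4 CPM; in number 4 the fractions were nearly level (-2.38 ± 0.43). The serotonin receptor gene Htr2b read 9.54, 1.31, 3.77 and 0.709 against 14, 19.1, 16.8 and 16.5 CPM (-2.54 ± 0.54), and the scavenger receptor gene Marco 6.7, 2.02, 3.62 and 10.8 against 8.73, 8.44, 46.3 and 57.6 CPM (-2.24 ± 0.59). Htr2b shares exon sequence with Psmd1 and Serpinb2 with Serpinb10. Calls of Cd207, Saa3, Serpinb2, Htr2b and Marco were lost without the block, and the Marco call also in 4 of the fits that left samples out.

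Resident macrophage markers were lower in part: 8 of 25 were lower and none was higher, though the list median was -0.07. Vsig4, a complement receptor of tissue macrophages, read 110.4, 67.6, 69.7 and 38.4 CPM in CCR2pos and 190.5, 253, 292 and 139 CPM in CCR2neg libraries, without overlap (-1.67 ± 0.28, edgeR adjusted p = 0.000131). Timd4, the phosphatidylserine receptor of long-lived resident cells, had 69.5, 42.6, 51.4 and 20.3 against 76.4, 147, 145 and 100.5 CPM (-1.42 ± 0.31). The hyaluronan receptor gene Lyve1 had 384, 248, 225 and 179.8 against 475, 561, 460.3 and 485 CPM (-0.96 ± 0.21), and the haemoglobin scavenger receptor gene Cd163 325, 368, 214 and 169 against 475, 759, 294 and 428 CPM (-0.85 ± 0.17). Timd4 and Lyve1 did not overlap; for Cd163 the CCR2pos values of numbers 1 and 2 exceeded the CCR2neg value of number 3. Ccl24, Ltc4s, Pf4 and Igf1 were the other lower members. Folr2, Mrc1, Mertk and Maf were not called, with log2 fold changes between -0.21 and 0.20. Without the block 1 member, Ltc4s, was called lower, and the calls of Vsig4, Timd4, Lyve1 and Cd163 were lost. In bulk samples fewer cells of a type and less RNA per cell cannot be told apart.

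Lipid-handling genes were mostly on the lower side, with 9 of 25 lower, 1 higher (Apoe) and a median of -0.21. Gpnmb, a glycoprotein of lipid-laden and phagocytic macrophages, read 588, 349, 1504 and 693 CPM in CCR2pos and 848, 1689, 4159 and 3147 CPM in CCR2neg libraries. The groups overlapped, because the CCR2pos value of number 3 exceeded the CCR2neg value of number 1, but all pairs pointed the same way (-1.61 ± 0.26, edgeR adjusted p = 8.46e-05). Spp1 (osteopontin) read 1161, 1166, 4999 and 1693 against 3629, 3051, 14915 and 2507 CPM, with number 3 far above the others in both fractions (-1.31 ± 0.20). The tetraspanin gene Cd9 had 327, 258, 435 and 249.7 against 777, 756, 1151 and 439 CPM, without overlap (-1.26 ± 0.16). Cd36, which takes up fatty acids and oxidised lipoproteins, had 535, 538, 371 and 245 against 1122, 997, 526 and 521 CPM (-0.90 ± 0.14). Fabp5, Cd5l, Lpl, Nr1h3 and Lipa were lower by 1.02, 0.85, 0.67, 0.66 and 0.45. The Lpl and Nr1h3 calls were lost without the library TFEBTG1 CCR2neg, and the Cd5l call in 11 of 19 alternatives. Trem2 was not called at -0.19. The count was 4 without the block and 9 in the 8 libraries alone.

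Lysosomal genes are known targets of TFEB. Of 35 hydrolases 6 were lower and 2 higher (22.9% called, beside 9.6% of all genes), at a median of -0.05; without the block 2 were lower and none higher. The collagen-degrading cathepsin Ctsk read 15.5, 7.18, 15.2 and 5.22 CPM in CCR2pos and 62.3, 61.1, 68.1 and 23.2 CPM in CCR2neg libraries, without overlap (-2.35 ± 0.34). Cathepsin D (Ctsd), among the most abundant transcripts, had 6573, 5764, 8292 and 6372 against 6884, 10013, 12917 and 11526 CPM; number 1 hardly differed between fractions (-0.59 ± 0.12). Lipa, the acid lipase of the lysosome, had 923, 942, 1091 and 813 against 1141, 1450, 1273 and 1290 CPM (-0.45 ± 0.10). Of 26 lysosomal membrane and v-ATPase genes 2 were lower and 1 higher (11.5% called). The lower ones were the proton pump subunit Atp6v0d2, with 24, 31.4, 99 and 32 against 72.2, 128, 302 and 155 CPM (-1.86 ± 0.20), and the channel gene Mcoln3, with 9.24, 2.91, 12.9 and 5.41 against 27.1, 30.9, 32.3 and 29.9 CPM (-2.12 ± 0.36). Of 32 autophagy genes 2 were higher (Calcoco1 and Atg101, at 0.44 and 0.36, the former not without the library TFEBTG1 CCR2neg) and none was lower (6.25% called); without the block neither was called. Tfeb itself read 51, 50.5, 34.6 and 19.1 CPM in CCR2pos and 36.5, 18.6, 16.9 and 12.4 CPM in CCR2neg libraries, higher in all 4 pairs with overlapping groups (0.88 ± 0.25, edgeR adjusted p = 0.0247). The Tfeb call was lost in 7 alternatives, at an adjusted p of 0.32 without the block.

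Genes of clearance and repair fell on both sides. Beside 9.6% of all genes, the shares called were 30% for efferocytosis, 35.3% for alternative activation and 38.9% for the matrix list. They were 31.6% for repair and growth factor, 21.1% for complement, and 47.4% for Fc and scavenger receptor genes. Of 20 efferocytosis genes 2 were higher (Axl and C1qb) and 4 lower. The bridging protein gene Mfge8, whose product links phosphatidylserine to integrins, read 95.6, 60.5, 74 and 41.4 against 174, 151, 219 and 114 CPM, without overlap (-1.30 ± 0.19), and Anxa1, which encodes annexin A1, had 648, 851, 1002 and 872 against 1049, 1229, 1745 and 1191 CPM (-0.62 ± 0.12). Timd4 and Cd36 were the other lower members. Among alternative activation genes 3 of 17 were higher and 3 lower. Arg1 (arginase 1) had 142, 146, 116 and 226 against 618, 473, 383 and 394 CPM, without overlap (-1.69 ± 0.33), while the interleukin 4 receptor gene Il4ra was higher, with 495, 645, 460.2 and 512 against 269, 407, 204 and 354 CPM (0.81 ± 0.11). The matrix list had 2 of 18 higher and 5 lower. Mmp12, macrophage elastase, read 100.4, 94.3, 75.7 and 68.6 against 309, 230.3, 409 and 179 CPM (-1.67 ± 0.32), and the inhibitor Timp1 7.04, 3.2, 4.86 and 8.51 against 45.1, 12.8, 8.79 and 10.6 CPM, with its highest value in the library TFEBTG1 CCR2neg (-1.59 ± 0.34). Among 19 repair and growth factor genes Il10, Gdf15 and Hbegf were higher and Fn1, Spp1 and Igf1 lower. Complement genes had 2 higher and 2 lower of 19, and Fc and scavenger receptors 4 higher and 5 lower of 19. Without the block the calls, higher and lower, were 1 and 2 for efferocytosis, 1 and 0 for alternative activation, 1 and 3 for the matrix list, 0 and 1 for Fc and scavenger receptors, and 0 and 0 for repair and for complement genes.

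Metabolic and cell cycle genes showed small differences, with list medians between -0.23 and -0.07. The shares called were 20% for glycolysis, 16% for oxidative phosphorylation and 11.1% for proliferation genes, beside 9.6% of all genes. Of 20 glycolysis genes 3 were lower (Aldoa, Pkm and Eno1) and 1 was higher (Hk1), at a median of -0.23; the Pkm and Eno1 calls were lost without the library TFEBTG1 CCR2neg. Aldoa, which encodes aldolase A, read 1114, 933, 1034 and 1163 against 1815, 1539, 1848 and 1405 CPM, without overlap (-0.64 ± 0.10). Oxidative phosphorylation had 3 lower and 1 higher of 25. Of 27 proliferation genes 3 were lower (Kif20a, Ccnb2 and Cenpe) and none was higher; the Ccnb2 and Cenpe calls were lost without the same library, and Mki67 and Top2a were not called at -0.22 and 0.28. Without the block only 1 lower glycolysis gene was called among these 3 lists.

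**Figure D3:**
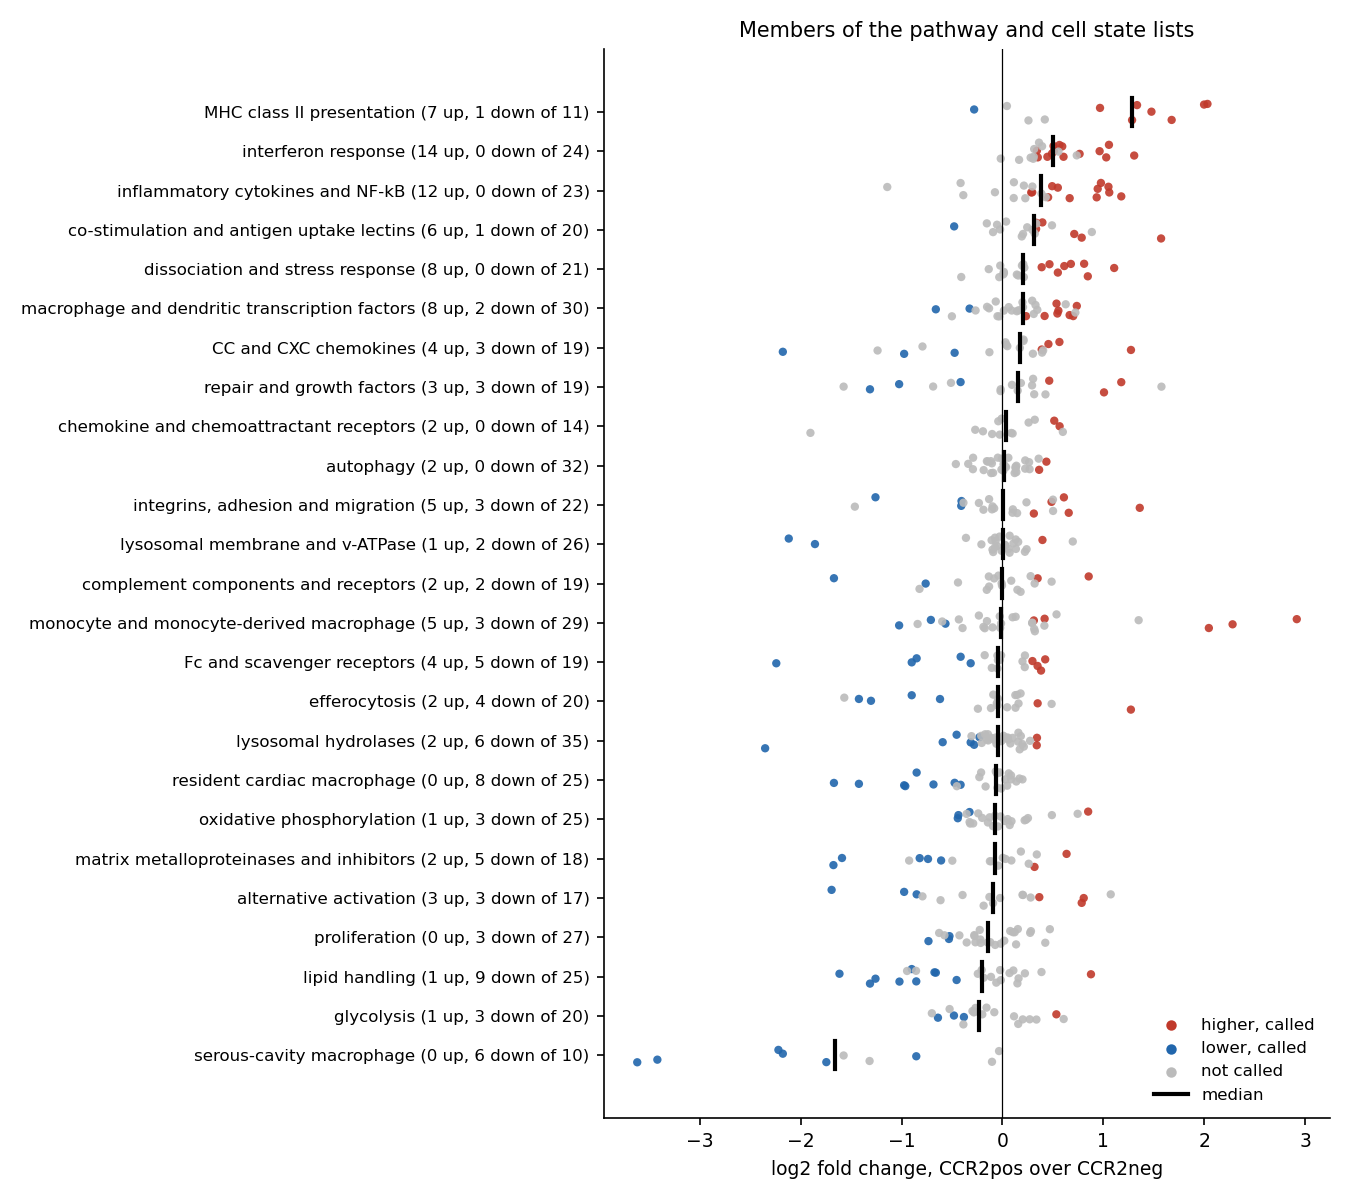
Log2 fold change, CCR2pos over CCR2neg, of the measured members of 25 pathway and cell state lists, 1 point per gene, with a black bar at the median. The class II, interferon and inflammatory lists lie to the right at medians of 1.28, 0.50 and 0.39, and the serous-cavity list lies to the left at -1.66.

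Of the markers of heart and blood cells other than dendritic cells, 0% to 9.09% per list were called, except 20% of neutrophil markers. The share over all genes was 9.6%. Cardiomyocyte markers had 0 calls of 15 by edgeR (6 at an unadjusted p under 0.05), 3 by DESeq2 and 0 by limma-voom, and their median was -1.03. In number 1 it was -3.21, and in the other numbers -0.18, -0.05 and 0.18. Their summed level was 625 CPM in the library TFEBTG1 CCR2neg and 49.0 to 83.4 CPM in the other 7 libraries, and the median was 0.00 without it. Fibroblast markers had 0 calls of 15 by edgeR (0 at an unadjusted p under 0.05) and by DESeq2, and 1 by limma-voom, with summed levels of 682 to 1157 CPM in CCR2pos and 457 to 1963 CPM in CCR2neg libraries. T and NK cell markers had 1 lower call of 18 (Il7r, -0.99 ± 0.21), and their summed level was highest in number 2, at 242 and 211 CPM. B cell markers had 1 higher call of 12 (Cd79b, 0.48 ± 0.12) and summed to 722 to 1110 CPM in CCR2pos and 605 to 1116 CPM in CCR2neg libraries. Of 10 neutrophil markers Il1r2 was higher and S100a8 lower, the latter at 0.2 to 2.64 CPM in CCR2pos and 2.56 to 7.16 CPM in CCR2neg libraries. Endothelial and mural markers had 1 lower call each, Cav1 and Cspg4 (-1.32 ± 0.33 and -2.26 ± 0.73). The Cspg4 and S100a8 calls were lost without the library TFEBTG1 CCR2neg. Those of Cd79b, Cav1 and Il1r2 were lost in 4, 3 and 9 of 19 alternatives, the fit without the block included each time. Of 5 erythroid and 4 mast cell and basophil markers edgeR, DESeq2 and limma-voom called 0 each, with 0 and 1 at an unadjusted p under 0.05.

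**Figure D4:**
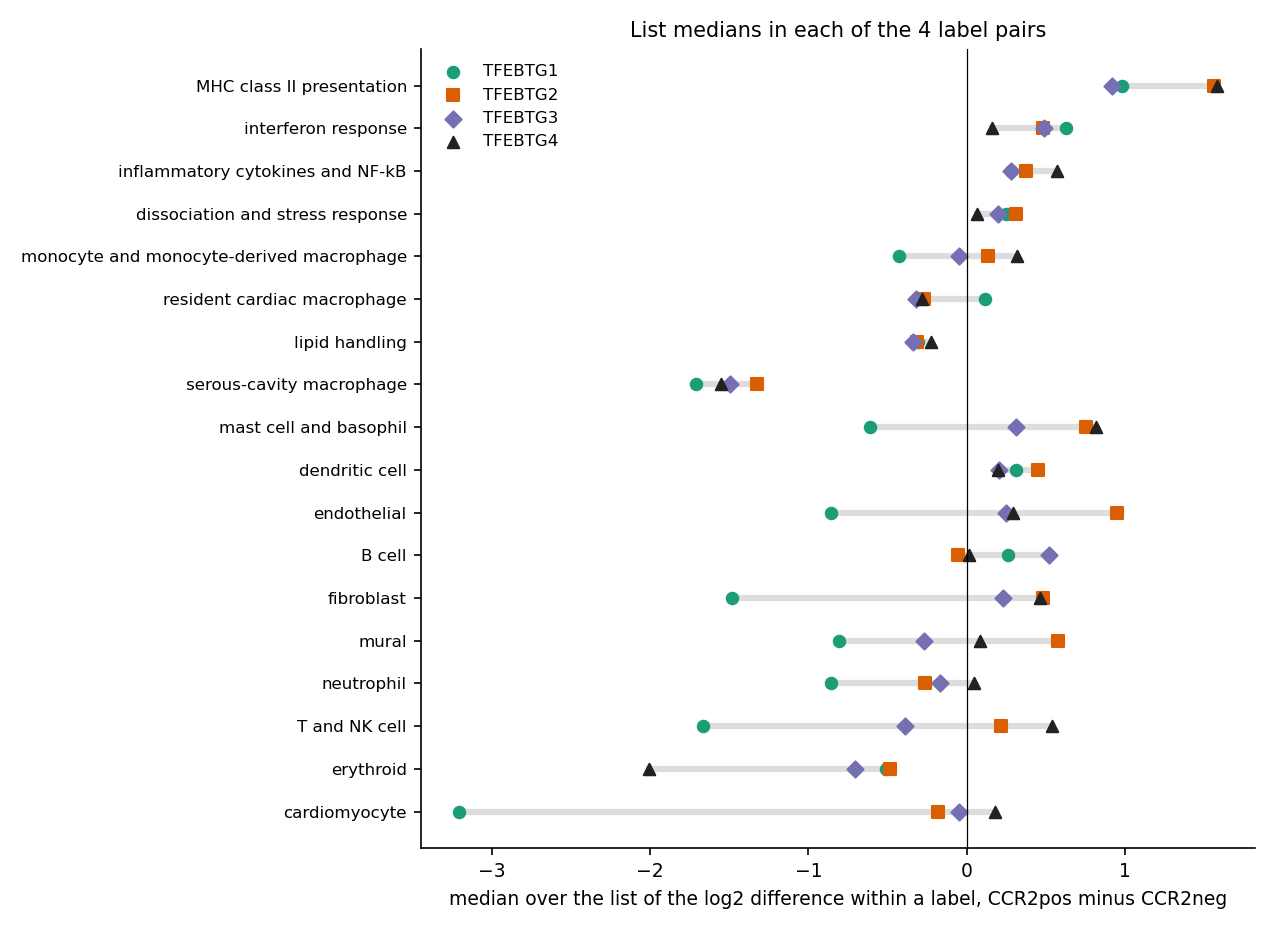
Median log2 difference over each list, CCR2pos minus CCR2neg, within each of the 4 numbers, with a grey bar over their range. The class II list lies between 0.92 and 1.58 and the serous-cavity list between -1.71 and -1.33 in all 4 numbers, whereas number 1 departs to the left for cardiomyocyte (-3.21), T and NK cell (-1.66) and fibroblast (-1.48) markers.

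The same fraction difference was then set beside that of 10 TFEB-wt Cre-neg libraries (5 per fraction, no cassette) and of 8 mac-TFEB libraries (4 per fraction, cassette and Cre, the same numbers as here). The 3 comparisons share no library, but they share the estimate of the spread from the 1 fit. In TFEB-wt Cre-neg cells 808 genes were called (6.31%; 3.67% higher and 2.65% lower) and in mac-TFEB cells 481 (3.76%; 2.36% higher and 1.4% lower). Of the 801 genes higher here, 717 (89.5%) had the same sign in TFEB-wt Cre-neg cells and 304 were called there, which is 38% of the genes here and 64.8% of the 469 higher there. Of the 427 lower genes, 410 (96%) had the same sign and 181 were called, 42.4% of those here and 53.4% of the 339 lower there. In mac-TFEB cells 755 and 409 had the same sign and 221 and 107 were called. The median log2 fold change of the 801 genes was 0.57 here, where they were chosen, 0.25 in TFEB-wt Cre-neg and 0.29 in mac-TFEB cells, and that of the 427 was -0.59, -0.37 and -0.35.

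The test of the difference itself called no gene. Against TFEB-wt Cre-neg cells edgeR called 0 of 12795 genes (0%), with 939 at an unadjusted p under 0.05 and a smallest adjusted p of 0.0668, while DESeq2 called 11 and limma-voom 6. Against mac-TFEB cells edgeR called 0 (0%), with 693 at an unadjusted p under 0.05 and a smallest adjusted p of 0.0734, while DESeq2 called 14 and limma-voom 21. A missed threshold does not show that the differences were alike, and the intervals of single genes were wide. Axl and Icam1 were among the 5 genes called by both other tools against TFEB-wt cells (with Pik3r6, Trmt10c and Atg4d), and this choice was made after their values were seen. Axl was higher in CCR2pos by 1.27 here, 0.49 in TFEB-wt Cre-neg and 0.56 in mac-TFEB cells. Its difference from TFEB-wt Cre-neg was 0.79 ± 0.15 (95% interval 0.47 to 1.11, edgeR adjusted p = 0.0668). In levels, Axl stood at 173 to 270 CPM in the CCR2pos and 66.9 to 135 CPM in the CCR2neg libraries here, against 134 to 192 and 110.5 to 142 CPM in TFEB-wt Cre-neg cells. Icam1 was higher by 0.66 here and 0.06 in TFEB-wt Cre-neg cells, a difference of 0.60 ± 0.12 (0.36 to 0.84). Its CCR2pos levels overlapped between genotypes, at 552 to 631 and 449.5 to 627 CPM, while its CCR2neg levels did not, at 344 to 401 and 443 to 578 CPM.

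The class II genes were higher in CCR2pos in all 3 groups of cells. H2-Ab1 had log2 fold changes of 2.0 here, 1.18 in TFEB-wt Cre-neg and 1.44 in mac-TFEB cells, and its difference from TFEB-wt Cre-neg was 0.82 ± 0.22 (0.37 to 1.27, edgeR adjusted p = 0.375, called by limma-voom only). Its CCR2neg levels were 536 to 1410 CPM here and 1375 to 1904 CPM in TFEB-wt Cre-neg cells, and its CCR2pos levels were 2078 to 3829 and 3260 to 4184 CPM. The class II list had 7 higher members of 11 here, 7 in TFEB-wt Cre-neg and 9 in mac-TFEB cells, and the interferon list 14, 16 and 5 of 24. The serous-cavity list had 6, 7 and 3 lower of 10. Prg4 had log2 fold changes of -3.62 here, -3.87 in TFEB-wt Cre-neg and -1.66 in mac-TFEB cells, and its difference from mac-TFEB cells was -1.96 ± 0.55 (-3.10 to -0.83, edgeR adjusted p = 0.427). The CCR2neg level of Prg4 was 6.75 to 61.2 CPM here, 22.3 to 55.6 CPM in TFEB-wt Cre-neg and 2.12 to 8.40 CPM in mac-TFEB cells. It was 1.965 to 7.197 CPM in TFEB-wt CX3CR1-Cre cells, which had Cre and no cassette. Ltc4s, which encodes leukotriene C4 synthase, had a log2 fold change of -0.68 here and one of 0.38 in mac-TFEB cells, a difference of -1.06 ± 0.20 (-1.48 to -0.64, edgeR adjusted p = 0.0821, called by both other tools). Its CCR2neg levels were 78.9 to 118 CPM here and 39.1 to 65.0 CPM in mac-TFEB cells. In TFEB-wt CX3CR1-Cre cells Ltc4s read 57.5 to 82.4 CPM in CCR2neg and 52.3 to 95.2 CPM in CCR2pos libraries. The parts of Cre and of the cassette in the Prg4 and Ltc4s values were not tested. Apoe was higher by 0.88 here and 0.04 in TFEB-wt Cre-neg cells, a difference of 0.84 ± 0.21 (0.39 to 1.28, edgeR adjusted p = 0.303).

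**Figure D5:**
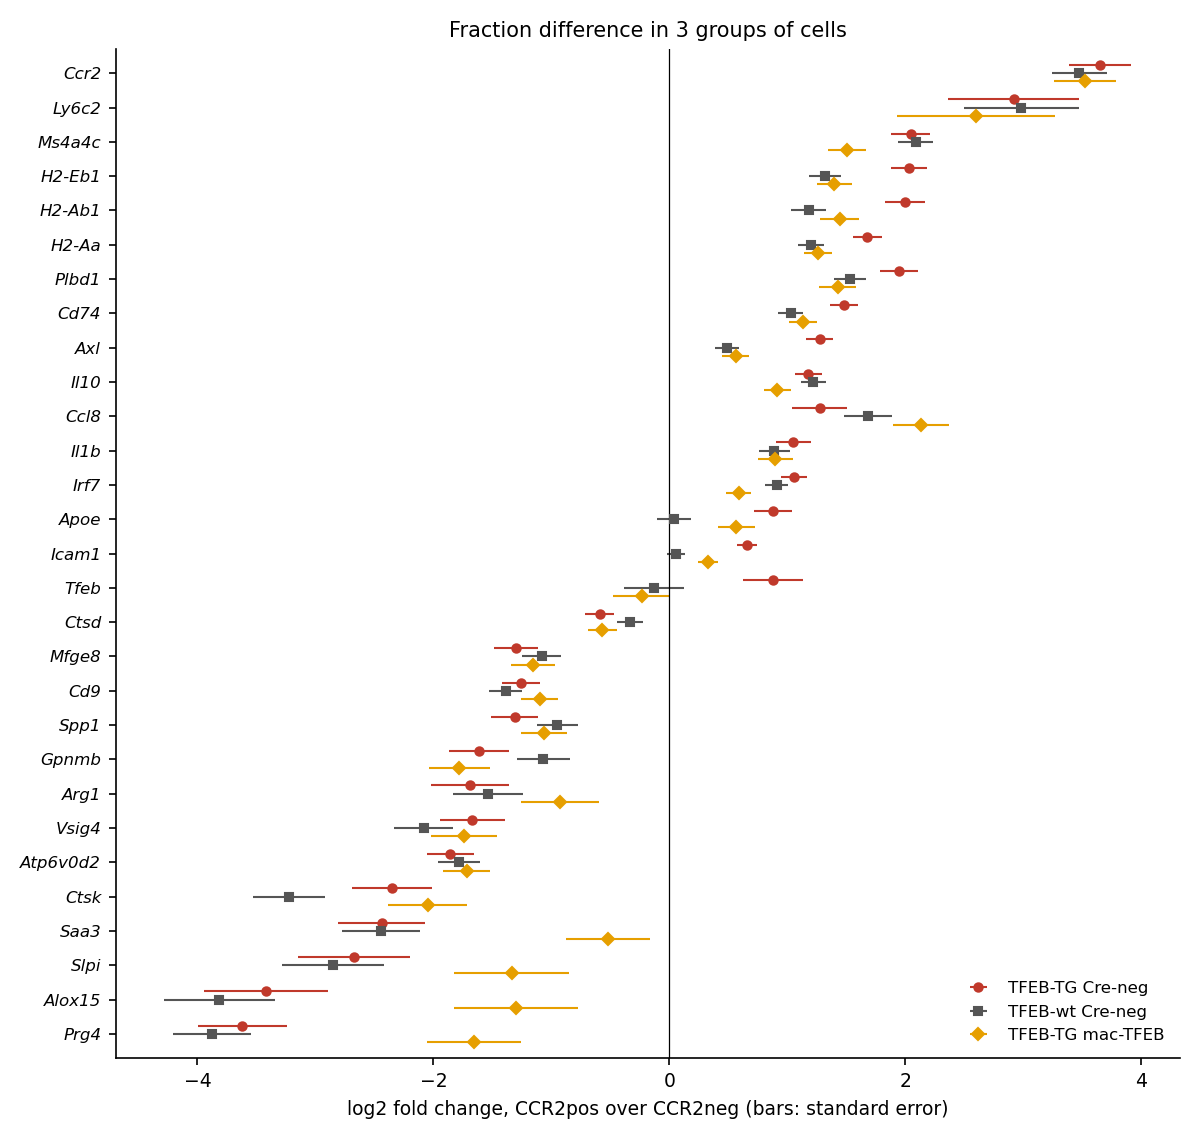
Log2 fold change, CCR2pos over CCR2neg, with its standard error as a bar, of 29 genes in TFEB-TG Cre-neg (red), TFEB-wt Cre-neg (grey) and mac-TFEB cells (orange). Prg4, Alox15, Slpi and Saa3 lie nearer 0 in mac-TFEB cells, Axl, Icam1 and Apoe lie farthest right in TFEB-TG Cre-neg cells, and no difference between the groups passed the edgeR threshold.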

How the data were processed

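RNA was sequenced from flow-sorted cardiac macrophages as single 50-base reads without strand, per the labels' protocols. The authors deposited 1 table of raw counts per gene (12795 genes, 36 libraries). The submitters' processing notes name TopHat2 2.0.10, Bowtie2, HTSeq, DESeq, edgeR and the build GRCm38, with no order. No label states which filter left these 12795 genes.

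The counts were fitted in edgeR 4.0.16 (R 4.3.3) with TMM scaling and its quasi-likelihood test over all 36 libraries, with the label number as a block (9 levels) and fraction by Cre status within genotype. filterByExpr removed 0 genes. P-values were Benjamini-Hochberg adjusted over 12795 genes and called under 0.05. Intervals are 95% ones. The block was kept because same-numbered fractions deviated together (r = 0.458, 0.545, 0.311 and 0.513 across genes); the labels do not state that a number is 1 animal. The fit was also run on counts simulated from its own model, which cannot show whether that model suits these data. Alternatives were no block, the compared libraries alone, DESeq2 1.42.0 and its size factors, limma 3.58.1 (voom), other count filters and leaving libraries out.

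Genes were named by rule: the 12 largest called changes per direction with a mean of at least 10 CPM and the same sign in 4 pairs, the 6 most abundant calls per direction, and 4 members per list by p. Other genes were named after their values were seen. The compared groups and the 35 gene lists were chosen with earlier results of these data known. Annotation symbols matched 12783 of 12795 identifiers. Counting error is small at these depths for abundant genes, and levels of about 1 CPM rest on few reads. Further named genes that share exon sequence with a tested gene, so that reads of the pair cannot be told apart, were Il1b (Il1bos), Junb (Prdx2), Nfkb2 (Psd), Dusp1 (Ergic1), Hk1 (Hk1os), Ltc4s (Gm26542), Kif20a (Cdc23), Cd74 (Mir5107), Ciita (Dexi), H2-DMa (Brd2), Clec9a (Clec1b), Csf1r (Hmgxb3), Atg4d (Kri1), Eng (Fpgs) and Tnni3 (Dnaaf3). Results on a few genes of the lists are not reported here.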

Additional observations from a re-analysis of the deposited data

Results flagged for a closer look

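Within a group of 4 libraries, a value counted as far from the others when its gap to the nearest was large against the range of the group. Of 296 groups tested, 34 had such a value. Chance flags about 1 in 20 groups of independent, normally distributed values, which CPM values from shared libraries need not be. The values of Cenpe and Ctsk lay below their groups and all others above. Of the 34, 16 were in the library TFEBTG1 CCR2neg. That library had Eng at 19.5, Gzma at 4.79, Gzmb at 5.25, H2-Ab1 at 1410, H2-D1 at 5352, H2-Eb1 at 1053, Irf8 at 73.4 and Junb at 231 CPM. It also had Mgp at 62.1, Myh11 at 13.4, Notch3 at 2.62, Scarb2 at 83.3, Timp1 at 45.1, Tnni3 at 71.3, Ttn at 21.3 and Vps37b at 57.8 CPM. Its cardiomyocyte markers summed to 625 CPM, and their part in these values was not tested.

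In the library TFEBTG3 CCR2pos the values were Atp6v0d2 at 99, Il7r at 25.5 and Spp1 at 4999 CPM. The library TFEBTG1 CCR2pos stood apart for Cd207 at 11.4, Cspg4 at 2.5, Eng at 21.8 and Notch3 at 2.85 CPM. TFEBTG2 CCR2neg differed from its group for Cenpe at 12.6 and Ighm at 753 CPM. In the library TFEBTG2 CCR2pos the values were Clec4b1 at 62.1 CPM. The library TFEBTG4 CCR2neg stood apart for Ctsk at 23.2, Nrg1 at 4.97, Saa3 at 554 and Vpreb3 at 0.82 CPM. TFEBTG4 CCR2pos differed from its group for Nrg1 at 19.9, Serpinb2 at 85 and Slpi at 31.7 CPM. In the library TFEBTG3 CCR2neg the values were Spp1 at 14915 CPM.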

How the results depend on the processing

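No gene called for the fraction difference changed sign under any alternative that was run. The pairing mattered most: without the replicate block 417 genes were called (316 higher, 101 lower), of which 412 were among the 1228, and in the 8 compared libraries alone with the block 602 were, 575 of them shared. DESeq2 called 1475 and limma-voom 1839 genes, with 1217 and 1151 shared. Leaving out 1 library or all libraries of 1 number gave 671 to 1098 calls, with 671, 789 and 731 without numbers 2, 3 and 4; the smaller number of samples is part of these alternatives. Of 111 called genes named by rule, 45 were called in every alternative, 64 were lost without the block and 24 in the 8 libraries alone. For the difference from TFEB-wt Cre-neg cells, where edgeR called 0 genes, DESeq2 called 11 and limma-voom 6, and leaving out samples gave 0 to 4, the 4 without the library TFEBTG1 CCR2neg. For the difference from mac-TFEB cells DESeq2 called 14 and limma-voom 21, and leaving out samples gave 0 to 5, the 5 without the mac-TFEB CCR2pos library of number 2. The cause of these changes was not tested. Depth limits genes of about 1 CPM, such as the scarce serous-cavity and dendritic cell markers.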

Other observations

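Outside the rule for named genes and the lists, and chosen after their values were seen, 2 further genes were higher in CCR2pos cells. Ltb4r1, the leukotriene B4 receptor that draws leukocytes, read 7.29, 7.77, 4.31 and 13.5 CPM in CCR2pos and 4.27, 1.56, 0.839 and 1.69 CPM in CCR2neg libraries. The groups did not overlap by a narrow margin, since the CCR2neg value of number 1 lay close to the CCR2pos value of number 3, and the log2 fold change was 2.03 ± 0.44 (edgeR adjusted p = 0.00239). Padi2, an enzyme that turns arginine residues into citrulline, read 17.2, 20.4, 13 and 16 against 12.5, 7.52, 6.42 and 6.71 CPM, at 1.05 ± 0.14 (edgeR adjusted p = 1.03e-05). The Padi2 call was lost without the block (edgeR adjusted p = 0.275). Its log2 fold change was 0.90 in TFEB-wt Cre-neg and -0.04 in mac-TFEB cells. The difference from mac-TFEB cells was 1.09 ± 0.20 (95% interval 0.68 to 1.5). It had the smallest adjusted p of that edgeR test, 0.0734, and was called by DESeq2 and limma-voom.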
